A study of Mus musculus with 36 samples.

Results

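The small leucine-rich proteoglycans lumican (Lum), decorin (Dcn), biglycan (Bgn), fibromodulin (Fmod), osteoglycin (Ogn), osteomodulin (Omd), prolargin (Prelp), asporin (Aspn) and keratocan (Kera) were followed in Bhas 42 cells exposed to silica materials or to a phorbol ester. Members were the probes of the array whose transcript accession belongs to one of these 9 mouse genes. All 9 were found, on 10 of the 56605 probes (Prelp had 2), and all 9 passed the filter on dim probes, among 32490 gene names tested. Bhas 42 is a line of mouse BALB/c 3T3 fibroblasts that carries a viral Ha-ras oncogene, in every group alike, and is used in assays of cell transformation. RNA was taken on day 6, after 48 h of exposure that began on day 4 after seeding at 1460 cells/cm², and was hybridised to 36 one-colour arrays, 4 in each of 9 groups. One set of groups consisted of 2% H2O, NM-203, a synthetic amorphous silica, at 1, 2 and 5 µg/cm², together with DE, diatomaceous earth, given at 5 µg/cm². A separate 2% H2O control accompanied Min-U-Sil 5, a crystalline silica used at 20 µg/cm². TPA (12-O-tetradecanoylphorbol-13-acetate), at 0.05 µg/ml, was compared with 0.1% DMSO. The 3 NM-203 doses and DE share 1 set of H2O arrays, so their changes are not independent of each other.

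Small leucine-rich proteoglycans are secreted proteins with a core of leucine-rich repeats, most of which carry glycosaminoglycan chains. They bind fibrillar collagens and set the width and spacing of fibrils, and several hold growth factors in the matrix. Fibroblasts are a main source of decorin, biglycan and lumican. Decorin, biglycan and asporin form class I of the family, lumican, keratocan, fibromodulin, prolargin and osteomodulin class II, and osteoglycin belongs to class III.

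All 10 fibroblast markers were well above background in H2O, with a summed level of 844 to 960 times the array's 75th percentile of intensity. Between 55.1% and 76.2% of probes per array were well above background, and no spot was saturated. The arrays lay on 5 slides scanned on 2 days, and the second day held every array of NM-203 at 2 µg/cm², of Min-U-Sil 5 and of its H2O control. Slide 4 stood apart: on the first principal component (36% of the variance) its 5 arrays of Min-U-Sil 5 and of the matching H2O lay at 116.6 to 153.2 and the NM-203 array at 54.8, against -89.8 to 43.4 for the other 30. Values are log2 of the intensity relative to that array's 75th percentile, so 0 is the 75th percentile. The 4 arrays of a group come from experiments the study calls independent, but no label links an array to an experiment, so p-values measure the spread between these arrays. The values compare groups for 1 probe and not 1 gene with another. In such bulk samples fewer cells with a transcript and less transcript per cell cannot be told apart.

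At its top dose of 5 µg/cm², NM-203 lowered 8 of the 9 members. The exception was Omd. Kera fell 9.66-fold and Lum, whose product like that of Kera carries keratan sulphate in the cornea, 9.01-fold. Aspn, a class I member named for a stretch of aspartates, fell 7.79-fold. The order of these falls depends on the background correction. The median change of the members was -1.92 on the log2 scale, against 0.01 for all gene names. In this comparison 33.1% of all gene names were called at an adjusted p under 0.05, and 19.1% were called lower. After scaling on the median of the genes tested 12.5% were called lower. The lower share of all calls went from 57.6% to 47.9%. The groups did not overlap for the same 8 members, while 20.1% of gene names lay wholly lower.

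**Figure D1:**
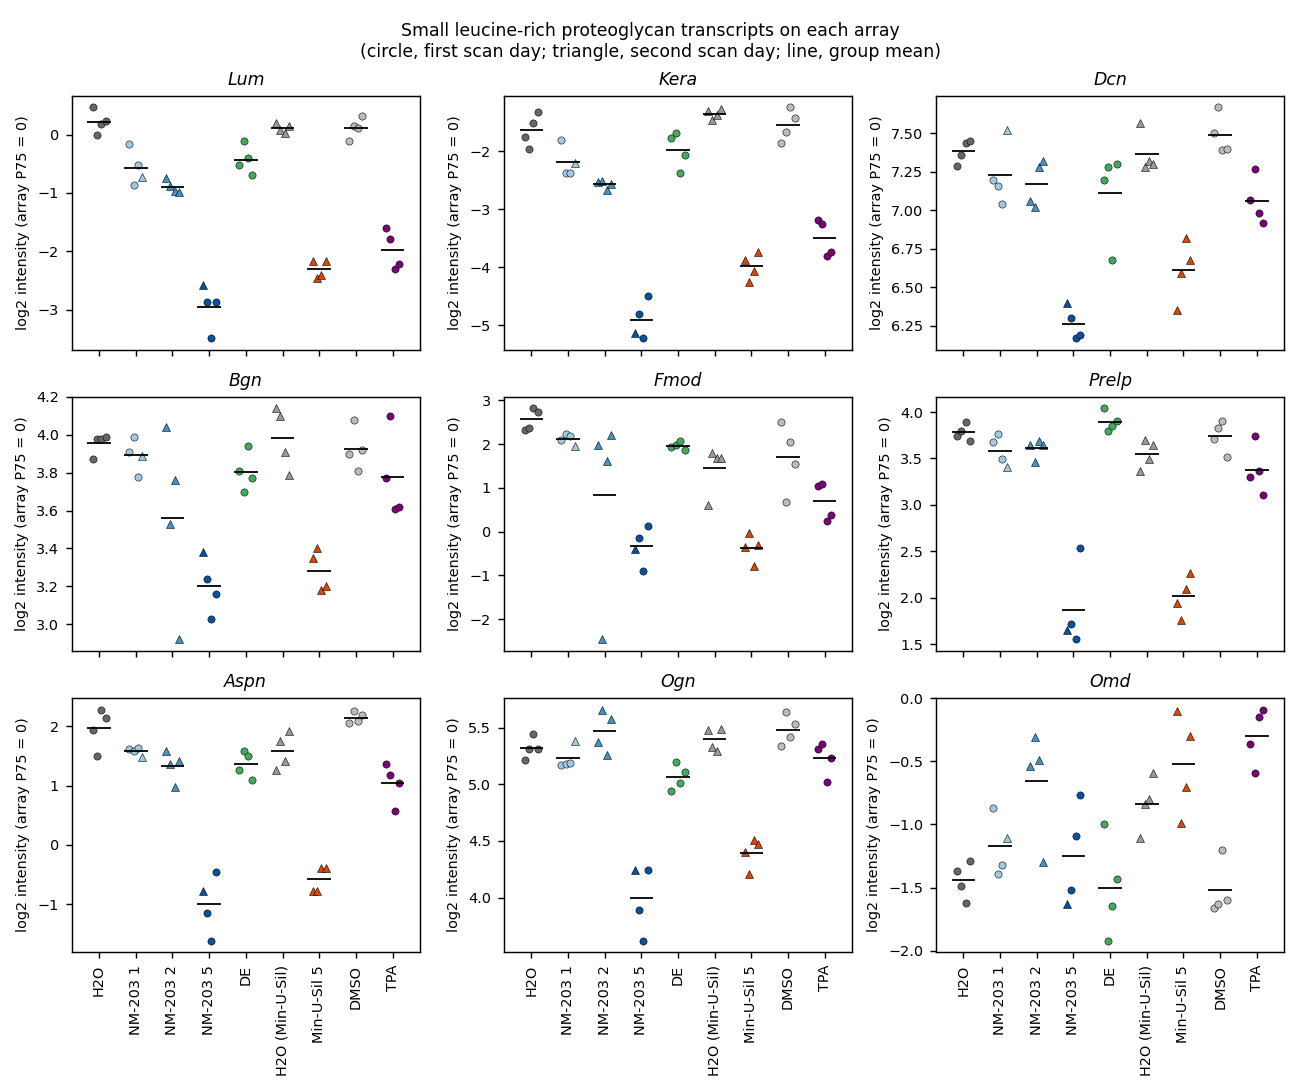
Each panel plots 1 member: log2 intensity relative to the array's 75th percentile (vertical) for the 4 arrays of each of 9 groups (horizontal), with the group mean as a line, circles for the first scan day and triangles for the second. For Lum the arrays of NM-203 at 5 µg/cm² lie between -3.49 and -2.58 and those of H2O between 0 and 0.47. Fmod has 1 array of NM-203 at 2 µg/cm² at -2.46, far below the other 3.

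Among class I members, Aspn stood at 1.94, 1.49, 2.28 and 2.14 in the 4 H2O arrays and at -0.78, -1.15, -1.61 and -0.46 after NM-203 at 5 µg/cm². Every treated array was below 0 and every H2O array above it. The log2 change was -2.96 ± 0.2 (SE of the limma fit, n = 4 per group, adjusted p = 1.63e-12). Dcn, a collagen-binding proteoglycan that also sequesters transforming growth factor beta, fell from 7.29, 7.36, 7.44 and 7.45 to 6.4, 6.3, 6.17 and 6.19. The spread within each group was a small fraction of the gap between them (-1.12 ± 0.13, adjusted p = 2.17e-08). Bgn, its close relative, fell least, from 3.87 to 3.99 in H2O to 3.03 to 3.38 (-0.75 ± 0.15, adjusted p = 0.000113). Within slides Bgn missed the threshold, at -0.9 on slide 1 (adjusted p = 0.075) and -0.74 on slide 3 (adjusted p = 0.23), where the other 7 lowered members were called.

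Among class II members, Lum read 0.47, 0, 0.18 and 0.23 in H2O and -2.58, -2.87, -3.49 and -2.87 at this dose. All treated arrays lay more than the whole range of the controls below them (-3.17 ± 0.17, adjusted p = 2.73e-14). Kera read -1.76, -1.96, -1.52 and -1.32 in H2O and -5.13, -4.81, -5.22 and -4.49 in treated cells (-3.27 ± 0.18, adjusted p = 3.39e-14). Only 2 of those 4 treated arrays were well above background for Kera, so its treated level sits at the edge of detection. With normexp background correction and quantile normalization the change of Kera was -1.7 (adjusted p = 2.16e-12) and that of Lum -2.31 (adjusted p = 1.09e-14), below the changes of Fmod (-2.91) and Aspn (-2.69) in that setting, so the order of the members turns while the directions hold. Fmod, which guides the cross-linking of collagen, read 2.32, 2.38, 2.82 and 2.74 in H2O and -0.4, -0.15, -0.9 and 0.14 after treatment. Its groups were far apart, but its error was the widest of the family (-2.9 ± 0.58, adjusted p = 0.000157). That error comes from a spread shared by all 9 groups. The SD of Fmod was 0.25 in H2O and 0.44 after this treatment, but 2.21 in NM-203 at 2 µg/cm², which holds an array at -2.46. Prelp, which tethers collagen to basement membranes, fell from 3.69 to 3.89 in H2O to 1.55 to 2.53 (-1.92 ± 0.16, adjusted p = 4.06e-11). Its other, dimmer probe gave -1.59 (adjusted p = 1.93e-08).

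Omd, a keratan sulphate proteoglycan best known from mineralised tissue, read -1.37, -1.49, -1.62 and -1.29 in H2O and -1.63, -1.52, -1.09 and -0.77 at 5 µg/cm². The groups overlapped, and the difference was 0.19 with a 95% interval of -0.25 to 0.64 (adjusted p = 0.593). The class III member Ogn, also called mimecan, read 5.21, 5.31, 5.44 and 5.31 in H2O and 4.24, 3.89, 3.62 and 4.24 after treatment. No treated array reached the lowest control (-1.32 ± 0.12, adjusted p = 2.23e-10).

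Min-U-Sil 5 lowered the same 8 members, again all but Omd, relative to its own H2O. Kera fell 6.19-fold, Lum 5.29-fold and Aspn 4.49-fold, while Dcn (1.69-fold) and Bgn (1.63-fold) fell least, as they did with NM-203. The order of the larger falls again depends on the background correction. The median change was -1.53 against 0.04 for all gene names, of which 25.6% were called and 13.9% were called lower. For all 8 the groups did not overlap, which held in this direction for 15.6% of gene names.

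Lum read 0.19, 0.07, 0.02 and 0.14 in the matching H2O arrays and -2.17, -2.45, -2.41 and -2.16 with Min-U-Sil 5. Both groups were tight, and the change was -2.4 ± 0.17 (adjusted p = 1.55e-11). Kera went from -1.3, -1.47, -1.38 and -1.28 to -3.87, -4.26, -4.07 and -3.74 (-2.63 ± 0.18, adjusted p = 8.61e-12). Here Kera was well above background on all 4 arrays of each group, but its size still depended on the background correction. With normexp correction it changed by -1.7, less than Lum (-2.1), Aspn (-2.07) and Fmod (-1.73) in that setting. Aspn changed by -2.17 ± 0.2 (adjusted p = 1.93e-09) and Prelp by -1.53 ± 0.16 (adjusted p = 8.16e-09). Ogn changed by -1 ± 0.12 (adjusted p = 9.86e-08), Dcn by -0.75 ± 0.13 (adjusted p = 2.73e-05) and Bgn by -0.7 ± 0.15 (adjusted p = 0.000417). Fmod fell from 0.6, 1.81, 1.69 and 1.69 to -0.36, -0.03, -0.78 and -0.31 (-1.82 ± 0.58, adjusted p = 0.0185). Its H2O level here was 1.12 below that of the other H2O group, the largest gap between control groups in the family. Without replicate 3 of Min-U-Sil 5 the adjusted p of Fmod was 0.0506. Omd was 0.31 higher, with an interval of -0.14 to 0.76 and overlapping groups (adjusted p = 0.36), and was called with array weights (0.49, adjusted p = 0.0202).

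Both slides that hold these arrays gave the same directions. Within slide 4, which stood apart, the 8 lowered members changed by -0.69 (Bgn) to -2.53 (Kera), and Bgn missed the threshold (adjusted p = 0.062). Within slide 5, with 1 treated array and 2 H2O arrays, the same 8 changed by -0.61 (Dcn) to -2.78 (Kera). Calls are not given for slide 5, as 1 group has 1 array. Lum changed by -2.3 on slide 4 and by -2.58 on slide 5, and Kera by -2.53 and -2.78.

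TPA, a phorbol ester that activates protein kinase C and serves as the reference tumour promoter of this assay, changed 5 members. Lum, Kera, Aspn and Dcn were lower and Omd was higher. The median change was -0.43 against -0.04 for all gene names, of which 11.7% were called, 6.78% lower and 4.89% higher. Scaling on the median of the genes tested leaves 2.39% called lower and turns the balance of all calls, from 58.1% lower to 44.4% lower.

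Lum read -0.11, 0.15, 0.11 and 0.32 in DMSO and -1.61, -1.79, -2.31 and -2.22 with TPA. The change of -2.1 ± 0.17 (4.28-fold, adjusted p = 5.21e-10) was near that after Min-U-Sil 5. Kera went from -1.86, -1.67, -1.24 and -1.43 to -3.18, -3.25, -3.8 and -3.74 (-1.94 ± 0.18, adjusted p = 6.2e-09). With normexp correction the change of Kera was -1.23 (adjusted p = 1.39e-08). Aspn fell from 2.05 to 2.25 in DMSO to 0.57 to 1.37 (-1.1 ± 0.2, adjusted p = 0.000268). Dcn fell from 7.39 to 7.67 to 6.92 to 7.27, without overlap (-0.43 ± 0.13, adjusted p = 0.0227). That call is weak: leaving out DMSO replicate 1 or 2 or TPA replicate 3 or 4 gave adjusted p between 0.0521 and 0.09, and scaling on the median gave 0.234.

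Omd was the one member that rose with TPA. It read -1.66, -1.63, -1.2 and -1.6 in DMSO and -0.36, -0.59, -0.15 and -0.09 in TPA, so every treated array exceeded every control. The change was 1.23 ± 0.22 (2.34-fold, adjusted p = 0.000177). The remaining 4 members missed the threshold: Fmod at -1.01 (interval -2.19 to 0.17, adjusted p = 0.311), Prelp at -0.36 (-0.68 to -0.05, adjusted p = 0.143), Ogn at -0.25 (-0.49 to -0.01, adjusted p = 0.183) and Bgn at -0.15 (-0.45 to 0.15, adjusted p = 0.603). Fmod passed with array weights (-1.02, adjusted p = 0.0293), and Prelp without TPA replicate 2 (-0.48, adjusted p = 0.0482). Within slide 1, with 2 TPA arrays and 1 DMSO array, Lum changed by -2.16, Kera by -2.28, Aspn by -1.21, Dcn by -0.26 and Omd by 0.83. These are sizes only, and calls are not given for so few arrays.

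**Figure D2:**
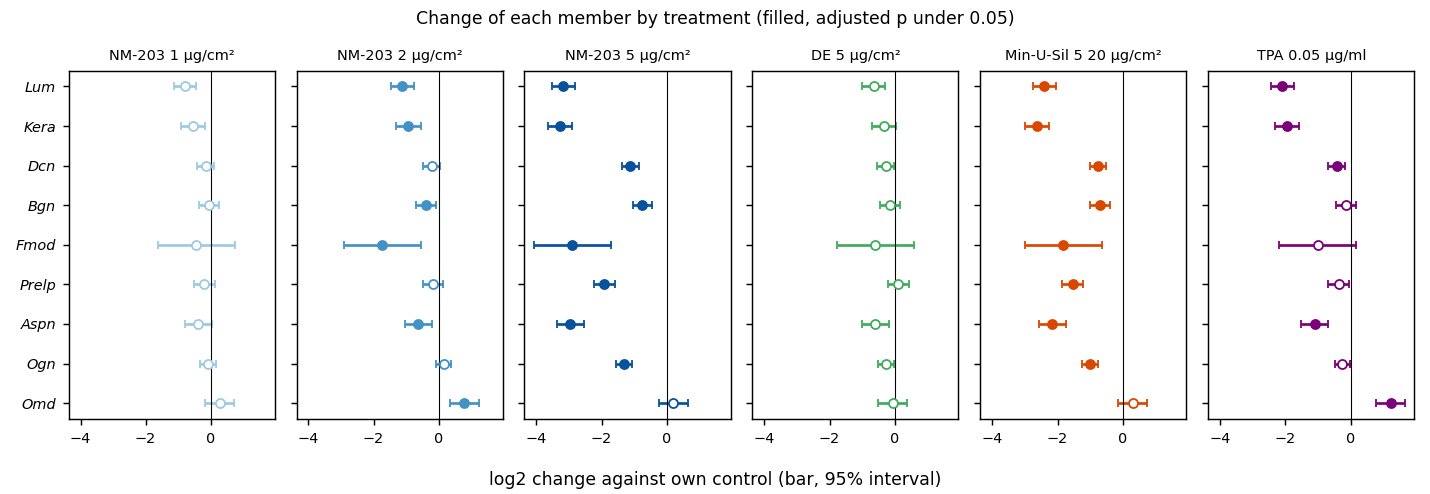
Log2 change of each member (vertical) against its own control (horizontal) in 6 treatments, with the 95% interval of the fit as a bar and filled points for an adjusted p under 0.05. In NM-203 at 5 µg/cm² Lum lies at -3.17 and Kera, at the edge of detection there, at -3.27, and Omd lies at or to the right of 0 in all but DE (-0.06).

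The change against each vehicle was then compared directly between treatments. The NM-203 change at 5 µg/cm² was more negative than the TPA change for 8 of 9 members, where 14.8% of gene names differed and 7.05% differed in this direction. For Omd, 1 of the 8, the difference lies in its rise with TPA (1.23), as it did not fall with NM-203 (0.19). Among these 8 the gap was widest for Aspn (-1.86 ± 0.29, adjusted p = 2.69e-05) and Prelp (-1.56 ± 0.22, adjusted p = 8.68e-06). It was -1.33 for Kera (adjusted p = 0.000409), -1.07 for Lum (adjusted p = 0.0021) and -1.07 for Ogn (adjusted p = 3e-05). Dcn differed by -0.69 (adjusted p = 0.00724), Omd by -1.03 (adjusted p = 0.02) and Bgn by -0.6 (adjusted p = 0.0477). The gap of Fmod was -1.89, with an interval of -3.56 to -0.22 (adjusted p = 0.137), and passed with array weights (-1.94, adjusted p = 0.00296) and with only the compared groups (adjusted p = 0.0161). The difference in Bgn did not pass when any of 12 single arrays was left out, and that in Omd did not pass without replicate 1 of NM-203 (-0.91, adjusted p = 0.0568). With normexp correction those of Lum (-0.5, adjusted p = 0.0844) and Kera (-0.47, adjusted p = 0.087) did not pass. Scaling on the median took the calls from Dcn (-0.6, adjusted p = 0.209), Omd (-0.95, adjusted p = 0.102) and Bgn (-0.52, adjusted p = 0.301). That scaling left 2.73% of all gene names called in this direction.

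Between NM-203 at 5 µg/cm² and Min-U-Sil 5, at their different doses, no member's change differed at the threshold. The tests called 65 of 32490 gene names (0.2%). At an unadjusted p under 0.05, Lum, Aspn and Kera were more negative with NM-203. Lum differed by -0.77 (interval -1.27 to -0.27, adjusted p = 0.279), Aspn by -0.79 (-1.38 to -0.21, adjusted p = 0.399) and Kera by -0.64 (-1.17 to -0.12, adjusted p = 0.499). With array weights, Lum (-0.91, adjusted p = 0.0239) and Kera (-0.86, adjusted p = 0.0426) passed, while with normexp correction the difference of Kera turned to 0.01. The first scan day held 3 of the 4 NM-203 arrays and the second all those of Min-U-Sil 5.

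Across the NM-203 doses the family changed mostly at the top dose. At 1 µg/cm² no member was called, while 0.0862% of gene names were, and the median change was -0.2 against -0.02. Lum was nearest, at -0.16, -0.86, -0.53 and -0.73, all below the 4 H2O arrays (-0.79 ± 0.17, adjusted p = 0.0579). It passed with normexp correction (-0.69, adjusted p = 0.0231) and with array weights (-0.72, adjusted p = 0.0254), and was at -0.74 on the first scan day alone (adjusted p = 0.141). Fmod also lay wholly below H2O, at 1.95 to 2.24 (-0.44, adjusted p = 1). The error of Fmod there, 0.58, came from the spread shared by all 9 groups, while its SD at this dose was 0.12. Groups without overlap in this direction made up 3.49% of gene names.

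At 2 µg/cm² 6 members were called, 5 lower (Lum, Kera, Fmod, Aspn and Bgn) and 1 higher (Omd), beside 25% of gene names, 8.86% called lower and 16.2% higher. Lum read -0.75, -0.89, -0.96 and -0.98 (-1.12 ± 0.17, adjusted p = 1.94e-05). Kera read -2.53, -2.52, -2.66 and -2.56 (-0.93 ± 0.18, adjusted p = 0.00033). Neither overlapped H2O, as 7.61% of gene names did not in this direction. Ogn, at 5.26 to 5.66, was 0.15 above H2O, where it fell at 5 µg/cm² (adjusted p = 0.374).

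Every array of this dose was scanned on the second day and every H2O array on the first, and the comparison depended on how that was handled. With scan day or with slide as a block 1 member, Lum, was called (-1.26, adjusted p = 0.00418, and -1.23, adjusted p = 0.00744). Kera (-0.78 ± 0.28 and -0.83 ± 0.29) and Omd (0.99 ± 0.33 and 0.92 ± 0.33) missed the threshold there. Their errors were wider than in the fit without a block (0.18 and 0.22), and the rise of Omd was not smaller. Against the H2O arrays of Min-U-Sil 5, scanned on the same day, 3 were lower: Lum (-1, adjusted p = 0.000233), Kera (-1.21, adjusted p = 6.46e-05) and Bgn (-0.42, adjusted p = 0.0498). Omd was then 0.17 higher (adjusted p = 0.608), having been 0.78 higher against the first H2O group (adjusted p = 0.00869). The 2 H2O groups differed by 0.61 in Omd. A fit of NM-203 at 2 µg/cm² and its own H2O alone called Lum and Kera. The share of all gene names called was not set beside these refits, so their counts describe the members alone.

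Fmod at 2 µg/cm² rested on 1 array. Replicates 1, 3 and 4 read 1.98, 1.62 and 2.22 and replicate 2 read -2.46, so the mean change of -1.73 (adjusted p = 0.0277) became -0.63 without it (adjusted p = 0.163). That replicate is the only array of this dose on slide 4. Bgn at this dose (-0.39, adjusted p = 0.0488) was marginal, and lost the call in 6 of 8 refits without 1 array. Without replicate 4 of this dose it became -0.18 (adjusted p = 0.297). It also missed with median scaling (adjusted p = 0.123) and with array weights (adjusted p = 0.105). Aspn (-0.63, adjusted p = 0.0221) became -0.51 without replicate 3 (adjusted p = 0.0821). Leaving out H2O replicate 3 or 4 also cut the count to 3 members, Lum, Kera and Omd.

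DE, at 5 µg/cm², called no member beside 1.01% of gene names, with a median change of -0.27 against -0.02. Lum read -0.52, -0.11, -0.4 and -0.7, all below the H2O arrays (-0.65 ± 0.17, interval -1 to -0.3, adjusted p = 0.0609). The value was near the threshold, and without DE replicate 2 it was -0.76 (adjusted p = 0.0331). Ogn (-0.26, adjusted p = 0.423) and Fmod (-0.6, adjusted p = 0.809) also lay wholly below H2O, as did 4.81% of gene names. The error of Fmod was again the shared 0.58, while its SD with DE was 0.09.

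NM-203 and DE were both given at 5 µg/cm². At that matched dose 8 members were lower with NM-203, all but Omd, where 29.2% of gene names differed and 15.2% were lower (52.2% of all calls, and 39.3% of them after scaling on the median). Kera was 7.63-fold lower (-2.93 ± 0.18, adjusted p = 8.89e-13), Lum 5.74-fold (-2.52 ± 0.17, adjusted p = 3.52e-12) and Aspn 5.13-fold (-2.36 ± 0.2, adjusted p = 2.48e-10). Bgn, the smallest, was -0.6 (adjusted p = 0.00169, and 0.0656 after scaling on the median). The same 8 were lower at 5 than at 1 µg/cm² of NM-203, with 28.1% of gene names called and 15.5% lower. Of all calls 55.1% were lower, and 47.5% after scaling on the median. Lum differed by -2.38 between these doses (adjusted p = 1.19e-11), Aspn by -2.58 (adjusted p = 4.9e-11) and Omd by -0.08 (interval -0.53 to 0.37, adjusted p = 0.88).

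Ordered by level, the 3 control groups were the highest for Lum, Kera, Aspn, Dcn and Bgn, with overlapping neighbours. The lowest places belonged to NM-203 at 5 µg/cm² and Min-U-Sil 5 for all members but Omd. For Lum the order ran H2O, DMSO, H2O of Min-U-Sil 5, DE, NM-203 at 1 and then 2 µg/cm², TPA, Min-U-Sil 5 and NM-203 at 5 µg/cm². The breaks without overlap in it lay before DE, before TPA and before NM-203 at 5 µg/cm². For Prelp and Ogn the 7 upper groups overlapped from neighbour to neighbour, and the only break lay above Min-U-Sil 5, by 1.36 and 0.67. Omd had no break, and its order began with TPA and ended with DMSO.

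Most of the family lies in clusters of neighbouring genes in the mouse genome, so members that share a neighbourhood could be compared. In the RefSeq gene order of GRCm38.p6, Dcn, Lum, Kera and Epyc (epiphycan) follow each other on chromosome 10. Ecm2 (extracellular matrix protein), Aspn, Omd and Ogn follow each other on chromosome 13, all within the span of Cenpp, a centromere protein gene. Optc (opticin), Prelp and Fmod follow each other on chromosome 1, and Bgn lies apart, on chromosome X. The array was designed on another build, so only the order is used.

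On chromosome 13 neighbouring genes were called in opposite directions with TPA. After NM-203 at 5 µg/cm² Ecm2 (-2.42), Aspn (-2.96) and Ogn (-1.32) fell on either side of Omd (0.19). After TPA, Aspn fell by 1.1 and Ecm2 by 0.73 while Omd, next to Aspn, rose by 1.23 and Ogn stood at -0.25. Cenpp, which spans all 4, rose in both comparisons, by 1.18 (adjusted p = 1.88e-05) and 1.63 (adjusted p = 7.16e-07). The nearest genes outside were Ippk, at 0.57 (adjusted p = 0.000253), and Nol8, at 1.01 (adjusted p = 1.38e-07), both higher after NM-203. On chromosome 10 the adjacent pair of Lum and Kera moved more than Dcn with NM-203 at 5 µg/cm², Min-U-Sil 5 and TPA. Optc, Prelp and Fmod were all lower after NM-203 at 5 µg/cm² and after Min-U-Sil 5, and none of the 3 passed with TPA.

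**Figure D3:**
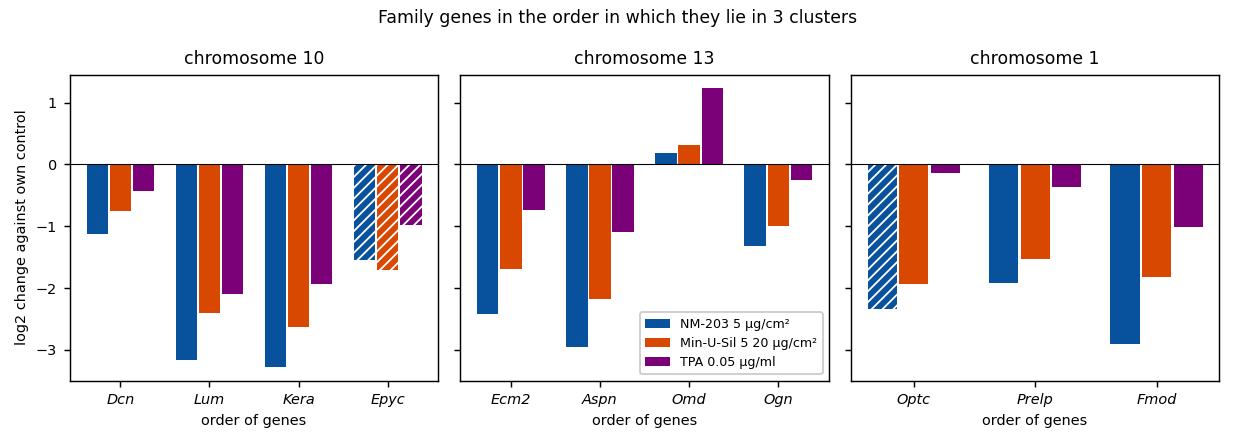
Bars give the log2 change against the own control (vertical) for the family genes of 3 clusters in their order along the chromosome (horizontal), after NM-203 at 5 µg/cm², Min-U-Sil 5 and TPA. Omd rises by 1.23 with TPA between Aspn (-1.1) and Ogn (-0.25). White hatching marks a treated group in which no array was well above background (Epyc in all 3, Optc after NM-203), where the bar is no measured size.

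The sequences just before the starts of Aspn, Omd and Ogn are shown because these neighbours on 1 strand moved in different ways. RefSeq promoters were at hand for 7 of the 9 members, not for Lum and Dcn. Each run is the 250 bases before the RefSeq start, on the plus strand of GRCm38.p6. Capitals mark matches to 4 short motifs searched on both strands. They were the TATA box TATAAA, the TEAD element GGAATG, the GC box GGGCGG and a pattern for the AP-1 element. Phorbol esters act through the AP-1 element, which was searched as TGANTCA with any base at N.
Aspn, chr13:49544193-49544442: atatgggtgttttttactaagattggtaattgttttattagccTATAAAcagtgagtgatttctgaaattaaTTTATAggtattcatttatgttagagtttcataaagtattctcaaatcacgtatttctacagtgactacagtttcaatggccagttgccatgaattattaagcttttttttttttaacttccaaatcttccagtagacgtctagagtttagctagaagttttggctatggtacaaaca
Omd, chr13:49582212-49582461: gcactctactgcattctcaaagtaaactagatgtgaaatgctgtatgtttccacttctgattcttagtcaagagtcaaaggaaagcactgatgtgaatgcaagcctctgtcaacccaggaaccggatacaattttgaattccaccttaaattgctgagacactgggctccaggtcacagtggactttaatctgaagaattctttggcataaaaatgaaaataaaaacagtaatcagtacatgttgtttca
Ogn, chr13:49607765-49608014: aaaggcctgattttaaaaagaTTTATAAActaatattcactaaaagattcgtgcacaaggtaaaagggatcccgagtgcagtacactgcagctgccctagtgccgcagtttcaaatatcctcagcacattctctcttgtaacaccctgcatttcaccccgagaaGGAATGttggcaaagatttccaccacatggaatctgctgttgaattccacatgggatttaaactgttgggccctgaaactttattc
Aspn held 2 TATAAA matches, both over 170 bases before the start. Ogn held 2 overlapping TATAAA matches, 229 to 222 bases before the start, and 1 GGAATG, and Omd held none of the 4 motifs. Over all 32851 promoters of the table, TATAAA was in 12.4%, TGANTCA in 6.75%, GGAATG in 12.6% and GGGCGG in 32.7% of such windows. None of the 7 members held TGANTCA there. Among the other 4, Bgn held 3 GGGCGG matches, 2 of them overlapping, and Fmod, Prelp and Kera held no match. A match or its absence describes these letters only.

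Other small leucine-rich proteoglycans were lower too: 5 of 8 measured after NM-203 at 5 µg/cm² (median -1.17), none higher. Chadl, a chondroadherin-like protein, fell 13.7-fold (-3.78 ± 0.23, adjusted p = 1.56e-13). It was the only gene of this list called at 1 µg/cm² (-1.22, adjusted p = 0.0297), and it was also called with DE (-1.26, adjusted p = 0.00356), where no member was. Ecm2 fell 5.36-fold, with 2 of 4 treated arrays well above background. Optc was not well above background on any treated array and was at least 1.58-fold lower (adjusted p = 3.45e-06). Min-U-Sil 5 lowered 5 of these 8 and raised 1, and TPA lowered 3. For this list and those that follow, the share of all gene names called lower was 19.1% with NM-203 at 5 µg/cm². It was 13.9% with Min-U-Sil 5 and 6.78% with TPA.

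Collagens that the family binds were lower in 10 of 12 cases with NM-203 at 5 µg/cm² (median -1.51), in 10 with Min-U-Sil 5 (-1.21) and in 8 with TPA, which raised 1. Col6a3, of microfibrils, changed by -1.77 and Col3a1, of fibrils, by -1.73 with NM-203. Of 12 measured proteases that process the family, a list that includes the enhancer Pcolce (-0.65), 9 were lower with NM-203, 3 were not called and none was higher (median -1.31). The stromelysin Mmp3 fell 11.3-fold with 2 of 4 treated arrays well above background, the gelatinases Mmp9 8.72-fold and Mmp2 4.36-fold. With TPA 4 of the 12 were lower and 1 higher.

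Of enzymes that build glycosaminoglycan chains, 10 of 22 were lower and none higher with NM-203 at 5 µg/cm², with a median of -0.11. In this comparison 19.1% of all gene names were called lower. The sulphotransferase Chst15 changed by -1.83, Csgalnact1, which starts chondroitin chains, by -1.65, and Chst2 by -1.23. Of other proteoglycans 9 of 16 were lower (median -0.5), among them Vcan (-1.51), Sdc3 (-1.11) and Bcan, not well above background in treated cells and at least 2.42-fold lower. Of receptors and growth factors bound by the family, 9 of 22 were lower and 1 higher (median -0.29). The endocytic receptor Lrp1, which takes up decorin, changed by -1.68, Pdgfb by -1.15 and the ion channel P2rx4, a receptor for biglycan, by -1.12.

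**Figure D4:**
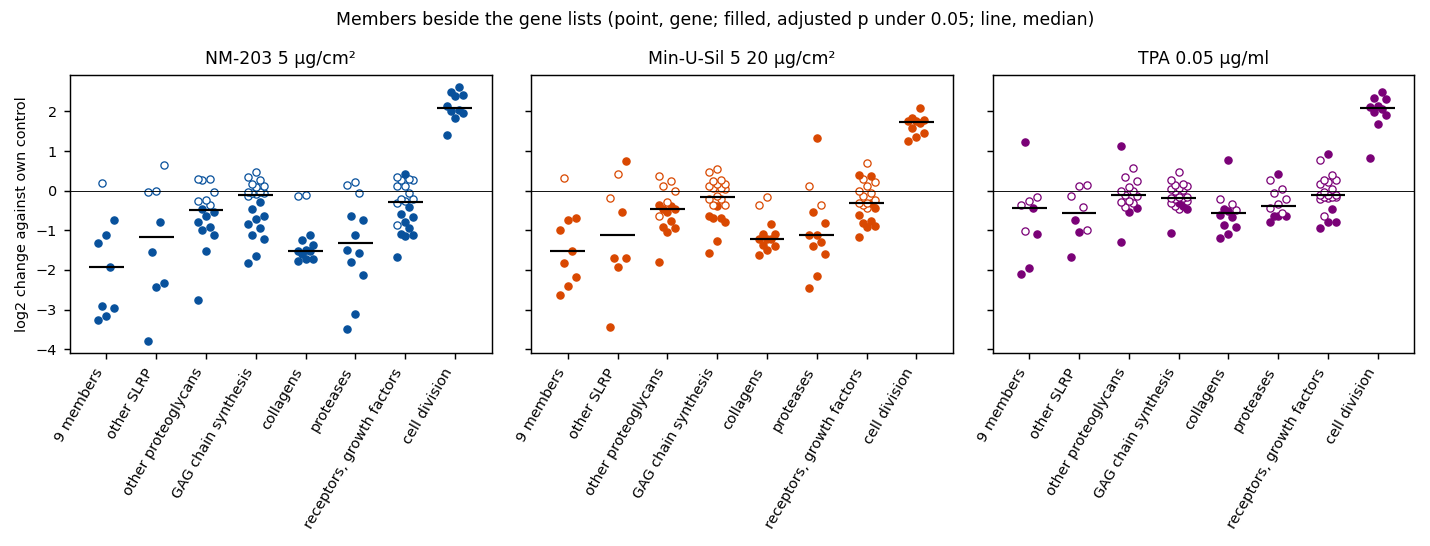
Points are genes, by list (horizontal), with their log2 change against the own control (vertical) after NM-203 at 5 µg/cm², Min-U-Sil 5 and TPA. Filled points have an adjusted p under 0.05 and lines are medians. The median of the 9 members is -1.92, -1.53 and -0.43 in the 3 panels, that of cell division 2.09, 1.73 and 2.09, and a few of the lowest points (Optc, Epyc, Bcan) are genes not well above background in treated cells.

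Genes of cell division moved the other way. All 10 listed were higher with NM-203 at 5 µg/cm² (median 2.09), with Min-U-Sil 5 (1.73), with TPA (2.09) and with NM-203 at 2 µg/cm² (1.68), among them the replication helicase subunit Mcm5 (2.61) and the mitotic kinase Plk1 (2.42) at the top dose. In the test of the NM-203 change at 5 µg/cm² against the TPA change, 2 of the 10 were higher with NM-203 (median 0.12). The 10 fibroblast markers were 7 lower at that dose (median -0.83), 7 with Min-U-Sil 5 and 2 with TPA, with summed levels of 553 to 753, 686 to 750 and 797 to 888. That list holds collagens. The part of either list in the members' change was not tested.

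Markers of other cell types were detected in part, and those of smooth muscle in full in H2O. Of 6 chondrocyte markers Col2a1, Sox9 and Comp were well above background on all 36 arrays, Acan on 1 and Matn3 and Hapln1 on none. The summed level of this list was 9.89 to 13.1 in H2O and 4.5 to 5.8 at 5 µg/cm², where the 3 measured markers were all called lower (median -1.54). Of 5 osteoblast markers Runx2 was above on 36 arrays, Bglap and Sp7 on 35, Ibsp on 5 and Alpl on none (0.784 to 1.02 against 0.455 to 0.53), and of 3 tenocyte markers Tnmd was above on 3 (0.174 to 0.223 against 0.205 to 0.253). Of 8 macrophage markers 6, among them Csf1r and Itgam, were above on all 36, Adgre1 on 7 and Ptprc on none (19.8 to 28.5 against 16 to 21.4). Epithelial markers summed to 0.4 to 0.52 in H2O and 0.273 to 0.426 at 5 µg/cm², and endothelial ones to 0.316 to 0.395 and 0.183 to 0.278. Adipocyte markers summed to 2.04 to 2.76 and 1.8 to 3.2, and smooth muscle markers to 58.4 to 76.6 and 66.2 to 104. Although the summed level of the smooth muscle list, set mostly by Acta2, was not lower, 3 of its 5 genes were called lower (median -0.94). The part of these lists in the members' change was not tested either.

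Over the 36 arrays the 28 pairs of members without Omd correlated with r between 0.543 and 0.979, Lum and Kera the closest, and the 8 pairs with Omd with r between -0.469 and -0.0657. After group means were taken out the ranges were -0.213 to 0.659 and -0.342 to 0.302, so most of the likeness lies between groups. These are descriptions, since the arrays share treatments and controls. By the largest r over the 36 arrays among 17775 named genes, genes close to Lum included Cacna1g (0.982), a calcium channel, and Lgals7 (0.971). Those close to Kera included Cacna1g (0.981) and Slco2b1 (0.975). Aspn was most like Zfp467 (0.967), also high for Prelp (0.955), and Matn2 (0.966), a matrix protein also high for Dcn (0.938). Ogn was most like Ankrd44 (0.966), Fmod like Gm16861 (0.916), Bgn like Tspan9 (0.855) and Omd like Casp12 (0.826).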

How the data were processed

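RNA of 36 Bhas 42 cultures was measured on 1-colour Agilent mouse arrays. Per the file headers, the deposited intensity values are spot signals after background subtraction by Agilent Feature Extraction 11.0.1.1, not normalized between arrays. The deposited value table holds log2 values centred per probe by the authors; their scale before centring is not stated, its column medians lie between -0.255 and 0.27, and 33 of 36 arrays matched their own column best. The other 3 are replicates 1, 2 and 3 of Min-U-Sil 5, which matched the columns of replicates 2, 3 and 1, so replicate numbers of this group follow the scanner files. It was used as an alternative. Here log2 intensity minus the array's 75th percentile was used, spots flagged as outliers and control spots were left out, and spots of a probe were averaged. Probes well above background on 3 of 4 arrays of a group were kept, and the brightest probe stood for a gene. Groups were fitted with limma 3.58.1 in R 4.3.3 (lmFit, eBayes) on all 36 arrays, with Benjamini-Hochberg adjustment over all 32490 gene names and a threshold of 0.05. All adjusted p-values come from such limma fits, which were tested on simulated data. Probes were named through RefSeq accessions (32994 of 56605 had a symbol). The number of arrays limits the precision. The members and gene lists were chosen with earlier results of these data known. Named were all members and, per list, at most 3 called genes with the largest change after NM-203 at 5 µg/cm². Alternatives were normexp correction (offset 50) with quantile normalization, scaling on the median, no filter and a stricter one, the mean of a gene's probes, slide, scan day or replicate number as a block, array weights, the compared groups alone, single slides and days, and leaving out each array. Same-numbered replicates did not deviate together (6 of 24 pairs had r over 0.1), so numbers were not used as pairs. Part of the ranking of genes by likeness to members is not reported here.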

Additional observations from a re-analysis of the deposited data

Results flagged for a closer look

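Of 81 sets of 4 arrays examined (9 members in 9 groups), 7 held an array whose gap to the nearest other exceeded Dixon's 95% critical share of the set's range, which happens by chance in about 1 of 20 sets. Fmod read -2.46 in replicate 2 of NM-203 at 2 µg/cm² (others 1.62 to 2.22) and 0.6 in replicate 1 of the H2O of Min-U-Sil 5 (others 1.69 to 1.81). Dcn read 6.68 in DE replicate 3 (others 7.2 to 7.3) and 7.57 in replicate 1 of the H2O of Min-U-Sil 5 (others 7.28 to 7.32). Bgn read 3.87 in H2O replicate 1 (others 3.98 to 3.99), Ogn 5.38 in replicate 4 of NM-203 at 1 µg/cm² (others 5.17 to 5.19) and Omd -1.2 in DMSO replicate 3 (others -1.66 to -1.6).

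The change after NM-203 at 5 µg/cm² differed from that after TPA, by the test of the difference itself, for 8 members: Aspn by -1.86, Prelp by -1.56, Kera by -1.33, Lum and Ogn by -1.07 each, Omd by -1.03, Dcn by -0.69 and Bgn by -0.6. For Omd the difference lies in a rise with TPA, and for the others in a deeper fall with NM-203. Of all gene names 14.8% differed, and 7.05% differed in this direction. The calls of Bgn, Dcn, Omd, Lum and Kera were each lost in some refits, as given above.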

How the results depend on the processing

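The numbers of members called were 0 at 1 µg/cm² of NM-203, 6 at 2, 8 at 5, 0 with DE, 8 with Min-U-Sil 5, 5 with TPA and 8, 8, 8 and 0 in the comparisons between treatments. With normexp correction, and with the replicate block, 1 member (Lum) was called with DE and 1 (Lum) at 1 µg/cm², as was 1 with array weights at 1 µg/cm². At 2 µg/cm² 1 was called with slide and 1 with scan day as a block, 2 with only the groups compared and 3 against the H2O of Min-U-Sil 5. No count is given within slide 5 for Min-U-Sil 5 or within slide 1 for TPA, where 1 group has 1 array. The share of all gene names called was not set beside the counts of these refits, which describe the members alone. Scaling on the median left 5 for NM-203 against TPA, where calls over all gene names fell from 4806 to 1983 (7.05% to 2.73% lower). Array weights called 2 for NM-203 against Min-U-Sil 5. Leaving out single arrays gave 0 to 1 with DE, 3 to 6 at 2 µg/cm², 7 to 8 with Min-U-Sil 5 and 4 to 6 with TPA. The counts without single arrays and with array weights have no share of all gene names beside them either. The replicate block changed no other count by over 1.5 times; same-numbered replicates correlated at -0.6 to 0.33, and 7 of 24 matched their own number best.

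Some changes turned sign, none of them called in the report. Between NM-203 and Min-U-Sil 5, Bgn became 0.06 with median scaling and ran from -0.11 to 0.02 without single arrays, Omd ran from -0.28 to 0.02, and Kera, at -0.64 in the report, became 0.01 with normexp. Bgn became 0.01 at 1 µg/cm² within slide 3 and 0.05 with TPA within slide 1, and Kera 0.05 at 1 µg/cm² within slide 2. Ogn at 2 µg/cm² became -0.11 with normexp, -0.1 with slide and -0.11 with scan day as a block, and Prelp there 0.08, 0.09 and, against the H2O of Min-U-Sil 5, 0.06 (slide, scan day, other control). Omd with DE became 0.29 within slide 1 and 0 within slide 2 and ran from -0.22 to 0.08 without single arrays, became -0.03 at 1 µg/cm² within slide 1, and ran from -0.24 to 0.05 between 5 and 1 µg/cm². Prelp with DE became -0.07 within slide 3. Of the other values of single members, 1071 kept direction and side of the threshold, 45 lost and 12 gained a call, and without single arrays 824, 30 and 2. The cause of these changes was not tested. Dim probes, above all Kera, are limited by signal over background.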
